A study of Mus musculus with 7 samples.

Results

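The Hox cluster genes encode homeodomain transcription factors, and were taken here as every row of the expression table whose name is Hox, a cluster letter from a to d and a number. This gave 36 genes of 38026 rows, with 11 in the Hoxa, 10 in the Hoxb, 8 in the Hoxc and 7 in the Hoxd cluster. RNA had been sequenced from subcutaneous tumors of pancreatic ductal adenocarcinoma (PDA) in C57BL/6 mice, harvested 2 weeks after inoculation and without treatment. The control tumors (sgScramble, replicates 1 to 4) grew from cells given a scrambled guide RNA, and the *Krt19* knockout tumors (sgKRT19, replicates 5, 6 and 8) from cells given a guide against *Krt19*, which encodes the epithelial filament protein keratin-19. The cells of both groups were the 1242 line, derived from a tumor of a KPC mouse, a model in which Cre is driven by the *Pdx1* promoter, so the controls carried its alleles too. Both groups also carried the Cas9 vector and had passed drug selection. The study describes pools of edited cells as well as single-cell clones, and the labels do not say which of them formed the sequenced tumors.

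Hox genes lie side by side in 4 clusters, and are numbered by paralog position, which runs from genes used toward the head of the embryo to genes used toward the tail. Adult cells often keep the combination of Hox genes that matches the body region they came from, and fibroblasts, muscle and many epithelia do so. Hox proteins bind DNA together with cofactors of the PBX, MEIS and PREP families, Polycomb and Trithorax proteins keep the clusters silent or active, and retinoic acid and CDX proteins act on them from outside. The comparison asked whether tumors of the control and the edited cells differed in this code, by cluster and by position. Positions 1 to 3 are called anterior here, 4 to 8 central and 9 to 13 posterior.

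On GRCm38 the Hoxa cluster spans chromosome 6 from 52155590 to 52260880, the Hoxb cluster chromosome 11 from 96194316 to 96368256, the Hoxc cluster chromosome 15 from 102921103 to 103036852, and the Hoxd cluster chromosome 2 from 74668310 to 74765142. *Krt19* lies on chromosome 11 as well. *Hoxc12*, *Hoxd12* and *Hoxd13* are in the annotation but have no row in the expression table, so they were not analysed here. The members share a coding stretch of 180 bases, the homeobox, which was found in all 36 genes. To show how far members of 1 cluster differ in it, the homeobox of *Hoxb7*, the member with the highest level in both groups, is set beside that of *Hoxb13*, the called gene that was lower, in GENCODE M21 transcripts and with capitals where the 2 differ.
Hoxb7: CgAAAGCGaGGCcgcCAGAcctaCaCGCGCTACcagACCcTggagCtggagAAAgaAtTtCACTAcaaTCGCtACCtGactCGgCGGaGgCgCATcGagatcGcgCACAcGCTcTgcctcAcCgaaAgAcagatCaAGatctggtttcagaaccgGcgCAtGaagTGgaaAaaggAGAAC
Hoxb13: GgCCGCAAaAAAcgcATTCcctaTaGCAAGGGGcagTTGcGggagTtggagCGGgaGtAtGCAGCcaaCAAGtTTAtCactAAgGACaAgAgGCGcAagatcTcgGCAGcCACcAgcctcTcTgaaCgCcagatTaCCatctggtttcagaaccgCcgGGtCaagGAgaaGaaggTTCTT
Each lies whole in exon 2 of 2 of its transcript, on the plus strand, at chr11:96289385-96289564 for *Hoxb7* and chr11:96196020-96196199 for *Hoxb13*. They differ at 85 of the 180 bases, with no identical run longer than 17 bases. Over whole transcripts, 0 of the 36 members shared any 76-base word, the length of the study's reads, with a Hox gene of another cluster. With any other gene, 17 members shared such a word, *Hoxd11* also with genes outside the clusters. Some of these pairs are named beside the results they touch. Those not named there include *Hoxc5* with *Hoxc10*, *Hoxa2* and *Hoxa3* with *Gm28308*, *Hoxa4* with *Gm29430*, *Hoxb5* with *Hoxb5os* and *Hoxd10* with *Gm28309*.

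Expression is given as normalized read count, the number of reads counted for a gene divided by a size factor for its library. The 7 libraries held 40781199 to 44972100 reads, and 3 reads, taken as the floor, were worth 2.74 to 3.47 on this scale. The edited gene followed the labels: the *Krt19* value was 23053 ± 4392 (SD, n = 4) in the control libraries and 2012 ± 434 (SD, n = 3) in the edited ones. Groups were compared with limma on log2(value + 1) over the 21322 genes with at least 10 in at least 3 libraries, with adjusted p under 0.05 as the threshold. The study describes its sequenced samples as individual tumors. Whether each library is a separate animal is not stated in the labels, so the p-values measure only the spread between these samples. Markers of several cell types, the epithelial cancer cells included, differed between the tumors. The summed skeletal muscle markers were 91.9 to 2720 in sgScramble and 21802 to 30271 in sgKRT19 (9 of 9 tested markers rose, and *Pax7* had at most 3 reads in any library). The epithelial marker sum was 135924 to 182973 against 270027 to 280150 (5 of 10 higher, 1 lower). *Krt8* and *Krt18* made up most of it, and *Epcam* had means of 910 and 913. The endothelial sum was 3801 to 5573 against 5837 to 7016 (4 of 8 higher). Scaled by library size alone, 2 of the 8 endothelial markers were higher, and the endothelial sums of the groups overlapped. The leukocyte sum was 18737 to 27910 against 24633 to 40016 (5 of 9 higher, 4 not called). *Lyz2*, not called, made up most of it, while the T cell markers *Cd3e* (means 65.2 and 395) and *Cd8a* (178 and 1386) were among those higher. Fibroblast markers summed to 116321 to 266383 against 126969 to 149172 with 0 of 10 called by limma (1 at an unadjusted p under 0.05, 1 called by edgeR and 2 by DESeq2), adipocyte markers to 767 to 3305 against 1820 to 2872 with 0 of 5 called by any of the 3 tools (1 at an unadjusted p under 0.05 in limma), and skin keratinocyte markers to 202 to 289 against 239 to 311 with 1 higher and 1 lower of 5, *Krt1* being under the floor throughout.

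Of the 36 Hox genes 30 passed the filter on low values, and 4 of these 30 (13.3%) differed between the groups, against 34.0% of all genes tested. *Hoxa7*, *Hoxa10* and *Hoxd9* were higher in the sgKRT19 tumors, where 17.9% of all genes were called higher, and *Hoxb13* was lower, where 16.0% of all genes were called lower. The fold changes of the 30 genes split into 13 positive and 17 negative, with a median log2 fold change of -0.03 beside 0.0072 over all genes. Scaled by library size alone, 3 Hox genes were called, 2 higher and 1 lower, and the calls over all genes were 2187 higher and 5705 lower in place of 3820 and 3420. The groups did not overlap for 5 members (16.7%), the called genes and *Hoxb2*, against 41.1% of all genes tested. For 15 of the 30 members the whole 95% interval of the difference lay within 1 log2 unit of 0, beside 13359 of all 21322 genes tested. A change smaller than 0.5 was seen in 20 of the 30, beside 13220 of all genes tested. A called share below that of all genes does not show that the other 26 were alike in both groups.

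**Figure D1:**
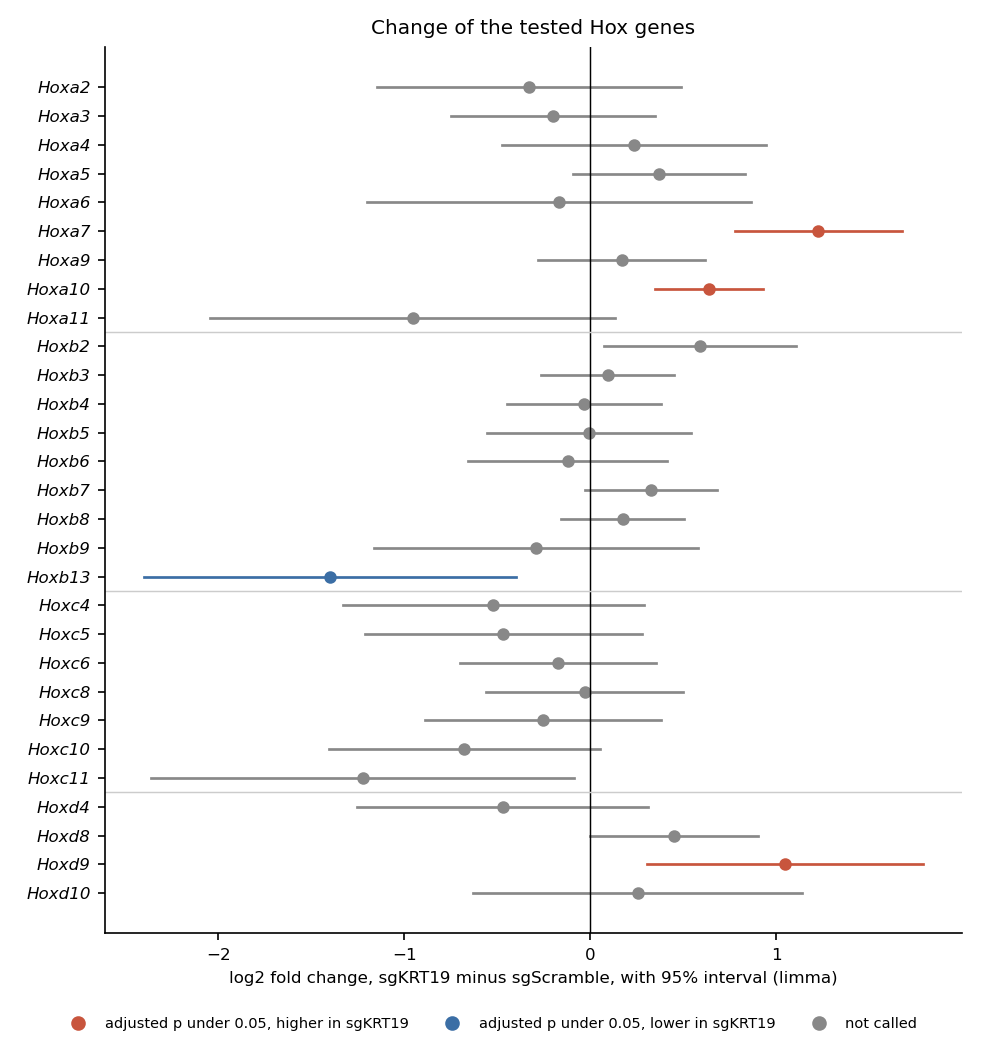
Each point is the log2 fold change (sgKRT19 minus sgScramble, horizontal axis) of 1 tested Hox gene, with its 95% interval from limma, in the order of cluster and paralog position and with grey lines between clusters. The 3 red genes and the 1 blue gene passed an adjusted p of 0.05, and all 7 points of the Hoxc cluster lie below 0 with none called.

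*Hoxa7*, a central gene of the Hoxa cluster, changed most among the higher genes. Its normalized read count was 119, 98.8, 111 and 161 in sgScramble 1 to 4 and 320.2, 302 and 236 in sgKRT19 5, 6 and 8. Every sgKRT19 tumor was above every control. The means were 123 ± 27.1 (SD, n = 4) and 286 ± 44.2 (SD, n = 3), which is 1.23 ± 0.20 (SE) higher in log2 units (adjusted p = 0.00157 by limma). The antisense RNA *Hoxaas3* lies on the opposite strand and overlaps 20.4% of the exon bases of *Hoxa7*. It had 59.4, 46.4, 54.8 and 72.3 in the controls and 169.9, 169.0 and 109 in sgKRT19, which is 1.33 ± 0.23 (SE) higher in log2 units (adjusted p = 0.00224 by limma). The library kit marks strand, but whether counting used it is not given in the sources used here, and without strand the reads of the overlap cannot be assigned to either RNA.

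*Hoxa10*, a posterior gene known from the uterus, limb and blood, had 431, 419.9, 344 and 402 in sgScramble and 679, 611 and 575 in sgKRT19. The groups did not overlap, and the lowest sgKRT19 tumor stood clear of the highest control. From 399 ± 38.5 (SD, n = 4) to 622 ± 52.4 (SD, n = 3) it rose by 0.64 ± 0.13 (SE) log2 units (adjusted p = 0.00489 by limma). Its outermost start in RefSeq is also where the gene begins in GENCODE M21, and the 250 bases before it hold no annotated exon, so this promoter is shown as that of a called gene, from the minus strand of chr6:52240855-52241104 on GRCm38.p6.
Hoxa10: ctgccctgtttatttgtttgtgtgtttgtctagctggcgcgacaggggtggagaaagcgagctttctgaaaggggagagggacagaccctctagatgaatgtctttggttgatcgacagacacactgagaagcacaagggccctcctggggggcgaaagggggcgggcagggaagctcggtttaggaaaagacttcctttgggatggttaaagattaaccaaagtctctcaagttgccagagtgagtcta
No capitals appear because none of the 3 motifs searched on both strands is in this window: TATAAA, the PBX and Hox composite TGATTNAT and the retinoic acid receptor half-site AGGTCA. A second RefSeq start of *Hoxa10*, at chr6:52234940-52235189, has TATAAA in its window. Over the 22 RefSeq promoters matched to 20 members, TATAAA was in 13.64%, TGATTNAT in 9.09% and AGGTCA in 27.3%, beside 12.4%, 2.83% and 14.02% of all 32851 promoters of the same length.

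*Hoxd9*, posterior and in the Hoxd cluster, rested on few reads, at most 52 in a library. It had 12.1, 29.6, 27.4 and 21.3 in sgScramble and 46.2, 37.0 and 54.6 in sgKRT19, without overlap. It rose by 1.05 ± 0.33 (SE) log2 units (adjusted p = 0.0352 by limma). This call was not stable: with library size alone as the scaling the change was 0.84 (adjusted p = 0.0793), and leaving out sgScramble 1 or 4 or sgKRT19 5 or 8 gave 0.79 to 1.04, with adjusted p of 0.0522 to 0.107. *Hoxb13*, the most posterior gene of its cluster and known from the prostate and hindgut, was also low, with at most 35 reads. It had 19.5, 21.7, 32 and 22.3 in sgScramble and 12.7, 13 and 3.15 in sgKRT19, the last being 3 reads and thus at the floor. All the sgKRT19 values were below all controls, with a log2 change of -1.40 ± 0.45 (SE; adjusted p = 0.0363 by limma). Without sgKRT19 8 it was -0.82 (adjusted p = 0.0898), and leaving out sgScramble 2, 3 or 4 gave -1.43, -1.25 and -1.42 with adjusted p of 0.0698, 0.0726 and 0.0655.

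**Figure D2:**
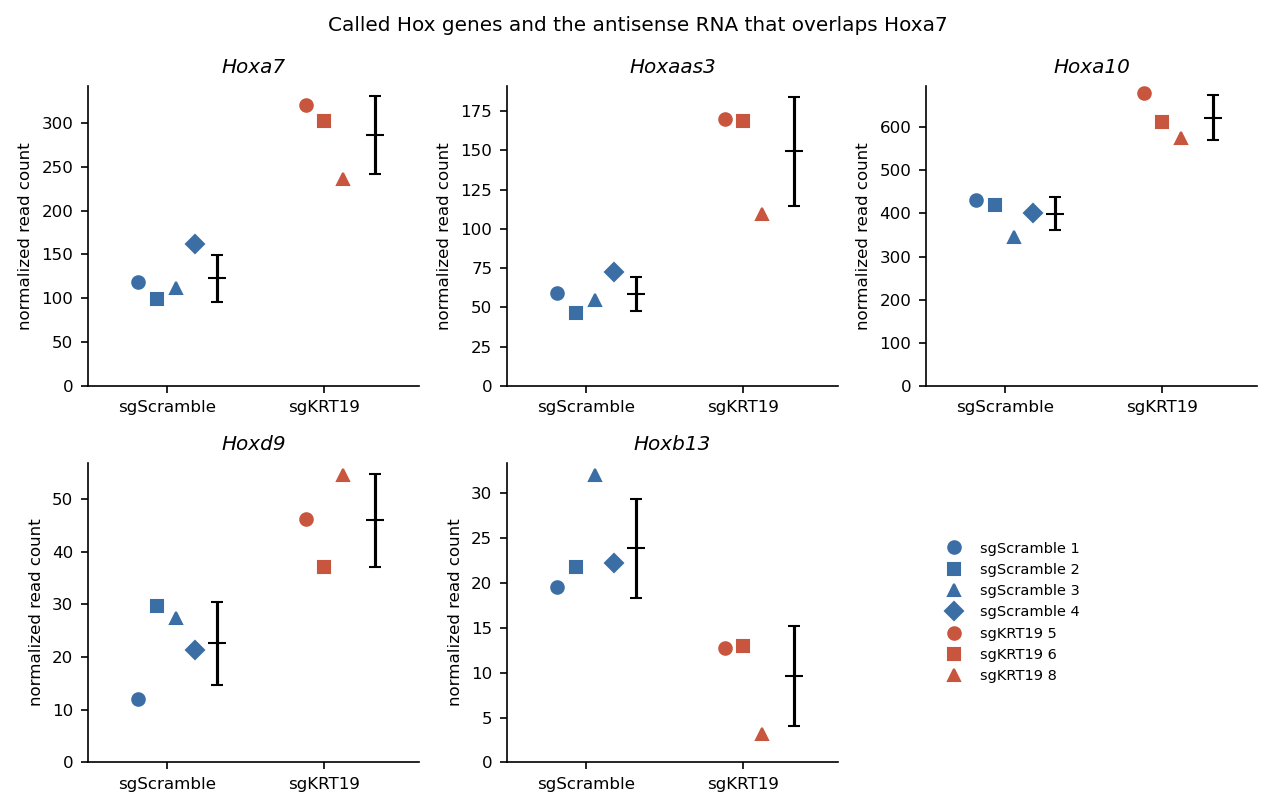
Normalized read counts (vertical axes, linear from 0) of the 4 called Hox genes and of the antisense RNA *Hoxaas3* in each of the 4 sgScramble (blue) and 3 sgKRT19 (red) libraries, with the mean and SD of each group in black. In all 5 panels the groups are apart, *Hoxb13* being the 1 that is lower in sgKRT19.

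The marker sums of skeletal muscle and epithelium were higher in the same 3 libraries as *Hoxa7*, *Hoxa10* and *Hoxd9*, and so were 5 leukocyte markers. The endothelial sum was higher in them too, but its groups overlapped with library size scaling. The part of all these cell types in the results of the 3 genes and in that of *Hoxb13* was not tested. Among the controls the muscle marker sum was 2720 in sgScramble 3 and 91.9 to 139 in the other 3. All were far below the 21802 to 30271 of sgKRT19. In sgScramble 3 *Hoxa7* was 111 and *Hoxd9* 27.4, each between the other controls. *Hoxa10* was 344, the lowest of the controls, and *Hoxb13* was 32, the highest. In bulk tumor RNA fewer cells of a type and less RNA per cell cannot be told apart.

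Seen by cluster, the summed normalized read count of the 11 Hoxa genes was 1040.3 in sgScramble 1, 968 in sgScramble 2, 883 in sgScramble 3 and 1132 in sgScramble 4, against 1643, 1419 and 1240.3 in sgKRT19 5, 6 and 8. Every edited tumor was above every control on this scale, at 1.43 times the control mean, and *Hoxa7* and *Hoxa10* belong to this sum. Within it the 3 anterior genes were at 1.0 times the control mean, the 4 central genes at 1.76 and the 4 posterior genes at 1.43. With library size scaling the ratio of the Hoxa sums was 1.22, and sgKRT19 8 then lay below sgScramble 4. The Hoxb sum overlapped, with 1817 to 2384 in sgScramble and 2043 to 2554 in sgKRT19, and so did the Hoxd sum, with 188 to 250.2 and 235 to 316. The Hoxc sum was 301, 355, 399 and 569 in the controls and 324, 367 and 257 in sgKRT19, again overlapping, with sgScramble 4 far above the rest. All 36 genes together reached 3774 ± 409 (SD, n = 4) and 4312 ± 225 (SD, n = 3). These sums over chosen genes were not tested.

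**Figure D3:**
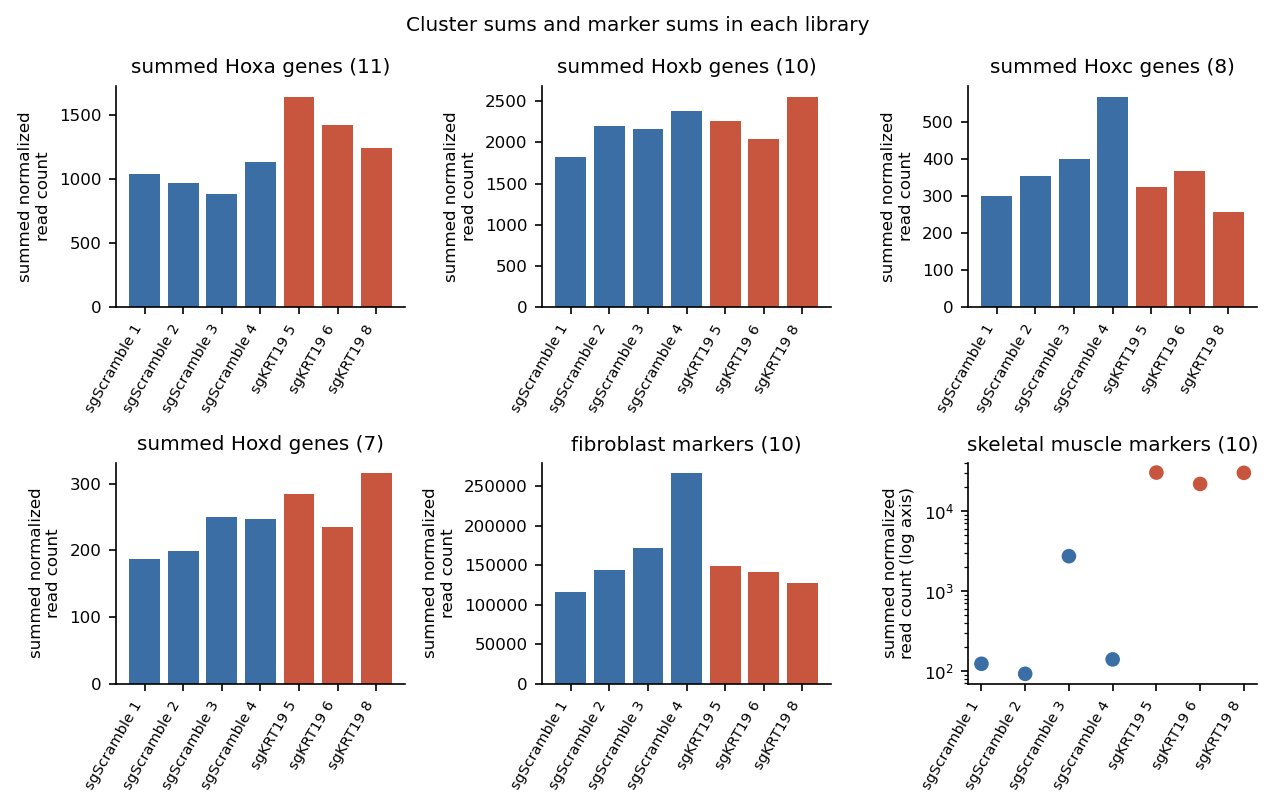
Summed normalized read counts (vertical axes) of the genes of each Hox cluster and of 10 fibroblast and 10 skeletal muscle markers in each library, as bars from 0 except for muscle, which is drawn as points on a log axis. The Hoxc sum and the fibroblast sum are both highest in sgScramble 4 (569 and 266383). On this scale the Hoxa sum is higher in every sgKRT19 library than in any control.

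By position, 0 of 5 tested anterior genes, 1 of 15 central genes and 3 of 10 posterior genes (30%) were called by limma, beside 34.0% of all genes tested, and 1 anterior gene had an unadjusted p under 0.05. The 3 posterior calls did not share a direction, since *Hoxa10* and *Hoxd9* were higher and *Hoxb13* lower. At position 7 both paralogs had positive changes: *Hoxa7* rose, and *Hoxb7* had 0.33 (95% interval -0.03 to 0.68, limma adjusted p = 0.134). At position 9 *Hoxd9* rose, and *Hoxa9*, *Hoxb9* and *Hoxc9* had changes of 0.17, -0.29 and -0.25, none called. At position 10 *Hoxa10* rose, *Hoxd10* had 0.26 and *Hoxc10* -0.68, neither called. All 3 genes at position 6 had negative changes, of -0.17 to -0.12, as did both tested genes at position 11, *Hoxa11* (-0.95) and *Hoxc11* (-1.22), with none called. Differences between paralogs in these changes were not tested.

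The Hoxb genes carried most of the Hox RNA. Per kilobase of exon, the only scale on which levels of different genes are compared here, *Hoxb7* had the highest mean in both groups, 305 ± 46.6 (SD, n = 4) and 384 ± 64.3 (SD, n = 3) normalized reads per kb. *Hoxb6* followed with 240.1 ± 62.8 and 220.1 ± 62.2. It was above *Hoxb7* in sgScramble 2, so the controls did not fix their order, and below it in the other 6 libraries. *Hoxa10* had the next mean, 122 ± 11.8 in sgScramble and 190.1 ± 16 in sgKRT19. It was above *Hoxb6* in sgKRT19 5 and below it in sgKRT19 6 and 8, so the edited libraries did not fix the order of these 2. The controls did not fix the order of *Hoxa10* and *Hoxb5* (117 ± 28.3). *Hoxa10* was above *Hoxb8* (112 ± 8.70) in every control, by little in sgScramble 3 (105.3 and 103.6 normalized reads per kb). *Hoxa7* moved from place 11 of 36 in sgScramble, with 42.6 ± 9.43, to place 6 in sgKRT19, with 99.5 ± 15.4. The same 6 genes, *Hoxa10*, *Hoxb3*, *Hoxb5*, *Hoxb6*, *Hoxb7* and *Hoxb8*, were among the top 8 in all 7 libraries. The order of the means was close in both groups (Spearman's rho 0.97 across 36 genes that share libraries and annotation, given as a description).

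**Figure D4:**
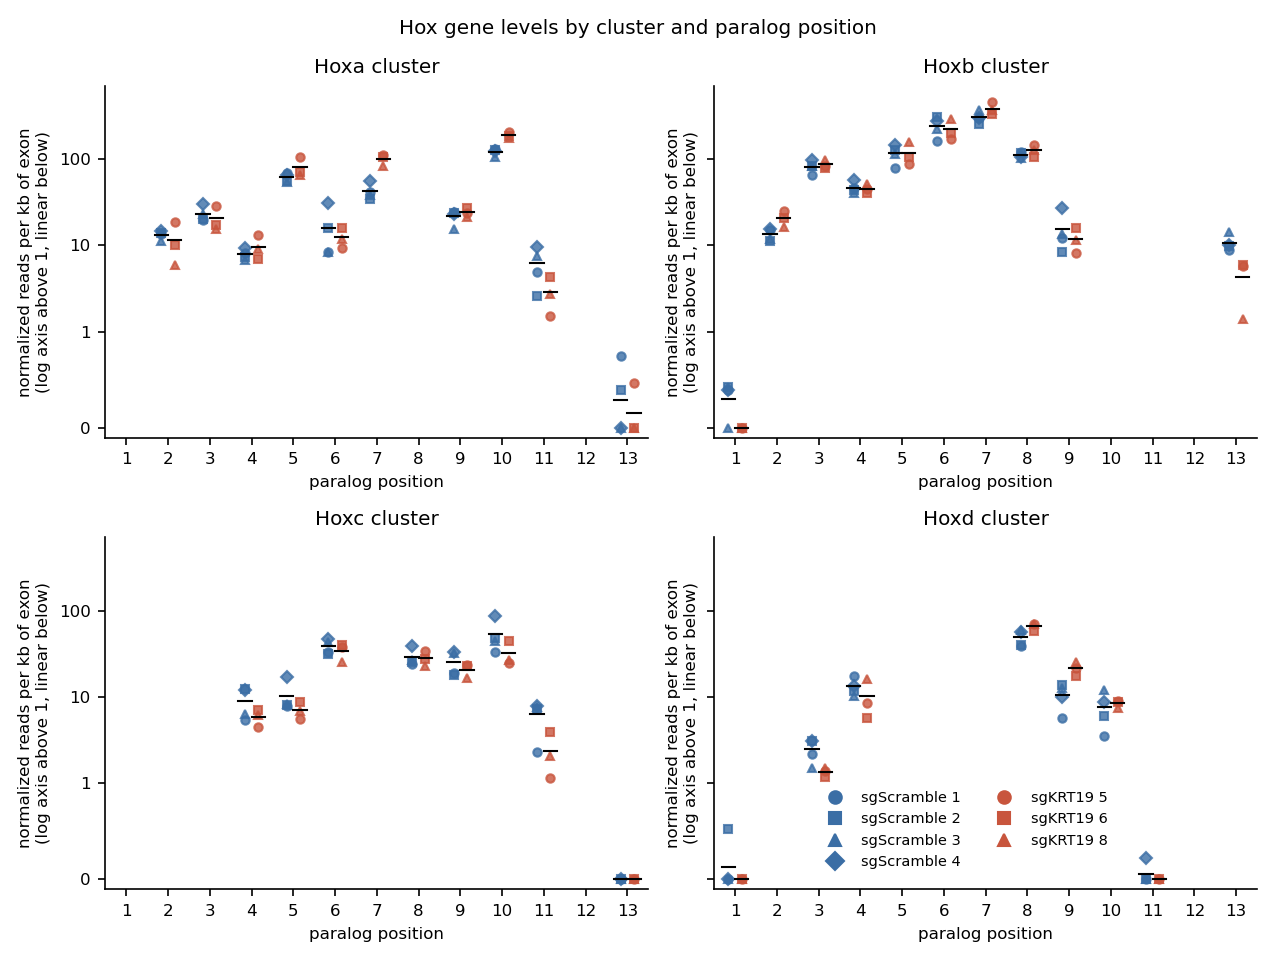
Levels per kilobase of exon (vertical axis, logarithmic above 1 and linear below) against paralog position for the genes of each cluster, with 1 point per library, sgScramble blue and sgKRT19 red, and black lines for the group means. The highest levels lie at positions 5 to 8 of Hoxb and at *Hoxa10*, while *Hoxa13*, *Hoxb1*, *Hoxc13*, *Hoxd1* and *Hoxd11* sit at or near 0.

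Among the abundant Hoxb genes, which mark trunk levels of the body axis, none was called. *Hoxb7* had 463, 397, 569.9 and 455 in sgScramble and 703, 510.1 and 565 in sgKRT19. *Hoxb6* had 314, 596, 439 and 537, then 338, 389 and 570.2. The values of each gene interleaved between groups. *Hoxb5* had 222, 356, 319 and 409 in sgScramble and 243, 295 and 444 in sgKRT19, with a log2 fold change of -0.01 (95% interval -0.56 to 0.54). *Hoxb8* had 319.5, 307, 273 and 276, then 383, 281 and 339. Both spread about as widely inside a group as between groups. *Hoxb3* had 276, 349, 351 and 411 in the controls and 351, 338 and 415 in sgKRT19, and shares 52.9% of its exon bases with the antisense *Hoxb3os*, itself not called. *Hoxb4* had 119, 112, 103 and 147, then 116, 104 and 131, and its interval was -0.45 to 0.38. The anterior *Hoxb2* was higher in all sgKRT19 tumors, 56.7 to 86.7 against 39.5 to 54.7, but its groups overlapped with library size scaling. It missed the threshold (log2 fold change 0.59, limma adjusted p = 0.0737), and 27.3% of its exon bases overlap *Hoxb3os*. *Hoxb9* ranged from 21.7 to 70.5 in the controls and from 20.8 to 41.0 in sgKRT19.

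In the Hoxa cluster the other abundant genes were not called. *Hoxa5*, which acts in lung and skeleton, had 131, 104, 101 and 123 in sgScramble and 197, 134 and 123 in sgKRT19 (log2 fold change 0.37, 95% interval -0.09 to 0.83). *Hoxa3*, needed for the thymus and parathyroid, had 117, 123, 138 and 179.9, then 173, 105 and 93.5. Transcripts on the opposite strand, *Hoxaas3* and *5730596B20Rik* among them, overlap 25.4% of its exon bases. *Hoxa9*, best known from blood progenitors, had 135, 133, 87.7 and 129.8, then 133, 152 and 121. In each of these genes the groups overlapped. *Hoxa2*, *Hoxa4*, *Hoxa6* and *Hoxa11* ranged from 3.47 to 33.5 over all libraries, with log2 fold changes of -0.33, 0.24, -0.17 and -0.95, and the interval of *Hoxa11*, -2.04 to 0.14, was the widest of these. *Hoxa11* overlaps the antisense *Hoxa11os* over 35.0% of its exon bases.

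All 7 tested Hoxc genes had a negative log2 fold change, from -1.22 for *Hoxc11* to -0.03 for *Hoxc8*, with a median of -0.47, and 0 were called by limma, edgeR or DESeq2, with 1 at an unadjusted p under 0.05 in each. Hoxc genes are best known from trunk and hindlimb tissue, skin among them. *Hoxc10* had 64.1, 92.9, 84.0 and 164 in sgScramble and 47.4, 85.0 and 51.5 in sgKRT19 (log2 fold change -0.68, 95% interval -1.40 to 0.05). sgScramble 4 was the highest control in 6 of the 7 Hoxc genes and in 17 of all 30 tested Hox genes, and the lowest in 0. The fibroblast marker sum was 266383 in sgScramble 4 and 116321 to 172124 in the other controls. The part of this in the Hoxc values was not tested. Without sgScramble 4 the ratio of the Hoxc sums moved from 0.78 to 0.90, and *Hoxc8* changed sign, to 0.13. *Hoxc11* had 4.64, 14.8, 15.5 and 15.8, then 2.31, 8.0 and 4.20, and of all alternatives passed only in the one without sgScramble 1 (log2 fold change -1.61, limma adjusted p = 0.0210). *Hoxc4*, *Hoxc5*, *Hoxc6* and *Hoxc9* ranged from 11.6 to 114 over all libraries, each with overlapping groups.

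In the Hoxd cluster, known from limbs and genitalia, *Hoxd8* had 108, 109.7, 164 and 157 in sgScramble and 191, 160.0 and 194 in sgKRT19, overlapping at sgScramble 3 and sgKRT19 6, with a log2 fold change of 0.45 (95% interval from just below 0 to 0.90, limma adjusted p = 0.109). *Hoxd10* ranged from 6.5 to 21.9 and *Hoxd4* from 17.0 to 52.0, neither called. *Hoxd3*, *Hoxd4* and the transcript *Gm28230* share exons, 53.1% of the bases of *Hoxd3* being also in *Gm28230*, so their counts cannot be fully separated. The 6 members that missed the filter were *Hoxa13*, *Hoxb1*, *Hoxc13*, *Hoxd1*, *Hoxd3* and *Hoxd11*. *Hoxd3* had 6.39 to 13 in sgScramble and 5.0 to 6.30 in sgKRT19. *Hoxa13*, *Hoxb1*, *Hoxd1* and *Hoxd11* never reached more than 2 reads, and *Hoxc13* had 0 in all 7 libraries, which leaves room for levels up to the floor.

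Genes that work with the Hox factors were read from the same fit. Of 9 TALE homeodomain cofactors, all tested, 4 were lower and none higher, which is 44.4% called beside 34.0% of all genes (16.0% lower). The median log2 fold change was -0.21, and with library size scaling 5 were lower and none higher. *Meis3* had 300.0, 222, 341 and 280.1 in sgScramble and 131, 115 and 139.7 in sgKRT19 (log2 change -1.14 ± 0.18 SE, adjusted p = 0.00120 by limma). *Meis1* had 230.4, 395, 270.3 and 358, then 135, 127 and 181 (-1.07, adjusted p = 0.00495). *Pbx4* (-1.53) was lower too, without overlap, while *Meis2*, *Pbx2*, *Pbx3*, *Pknox1* and *Pknox2* were not called. Of the ParaHox and Cdx genes, relatives of the clusters of which some act in gut and pancreas, 2 of 6 were tested. *Cdx2*, the intestinal regulator that also acts on Hox clusters, had 152, 112, 134 and 132 in the controls and 378, 469 and 519 in sgKRT19 (log2 change 1.77 ± 0.17 SE, adjusted p = 9.4e-05 by limma). *Pdx1*, the pancreatic regulator, had means of 1149 and 1072 and was not called.

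Among 27 Polycomb genes, all tested, 10 were lower and 2 higher (44.4% called, beside 34.0% of all genes), and the median log2 fold change was -0.12. With library size scaling 14 were lower and 0 higher. The lower genes encode subunits of the PRC1 complexes, except the PRC2 accessory gene *Mtf2*, and were led by *Phc1* (-1.17) and *Pcgf2* (-0.93), with *Phc3*, *Pcgf3*, *Cbx2*, *Rybp*, *Cbx6*, *Rnf2* and *Mtf2* at -0.57 to -0.32. *Epop* (0.67) and *Bmi1* (0.30) were higher, and both calls were lost with library size scaling. The catalytic genes *Ezh1* and *Ezh2* and the core genes *Eed* and *Suz12* were not called. Of 14 Trithorax genes and H3K27 demethylases, 5 were lower and 2 higher (50% called, beside the same 34.0%), with a median of -0.37, and library size scaling gave 6 lower and 1 higher. *Ash1l* (-1.04), the demethylase *Kdm6b* (-0.87), *Men1* (-0.58), *Mllt1* (-0.38) and *Kdm6a* (-0.36) were lower, and *Mllt3* (0.75) and *Ash2l* (0.32) higher, the call of *Ash2l* being lost with library size scaling.

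Of 16 retinoic acid genes 14 were tested, with 5 higher, beside 17.9% of all genes, and 2 lower, beside 16.0%, and a median of 0.07. With library size scaling 5 were higher and 4 lower, and the median was -0.14. *Aldh1a3*, which makes retinoic acid, had 3380, 2442, 4115 and 1636 in sgScramble and 13174, 16547 and 17609 in sgKRT19 (log2 change 2.52 ± 0.27 SE, adjusted p = 0.000168 by limma). *Aldh1a1* (1.18), the binding protein *Crabp1* (2.01) and the degrading enzyme *Cyp26b1* (1.79) were higher as well. The receptors *Rara* (-0.64) and *Rxra* (-0.33) were lower, and *Rarb* and *Rarg* were not called. Over all these lists, neighbours included, 49 of 117 tested genes were called, 22 higher and 27 lower, and with library size scaling 14 were higher and 42 lower. Of all genes 34.0% were called.

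**Figure D5:**
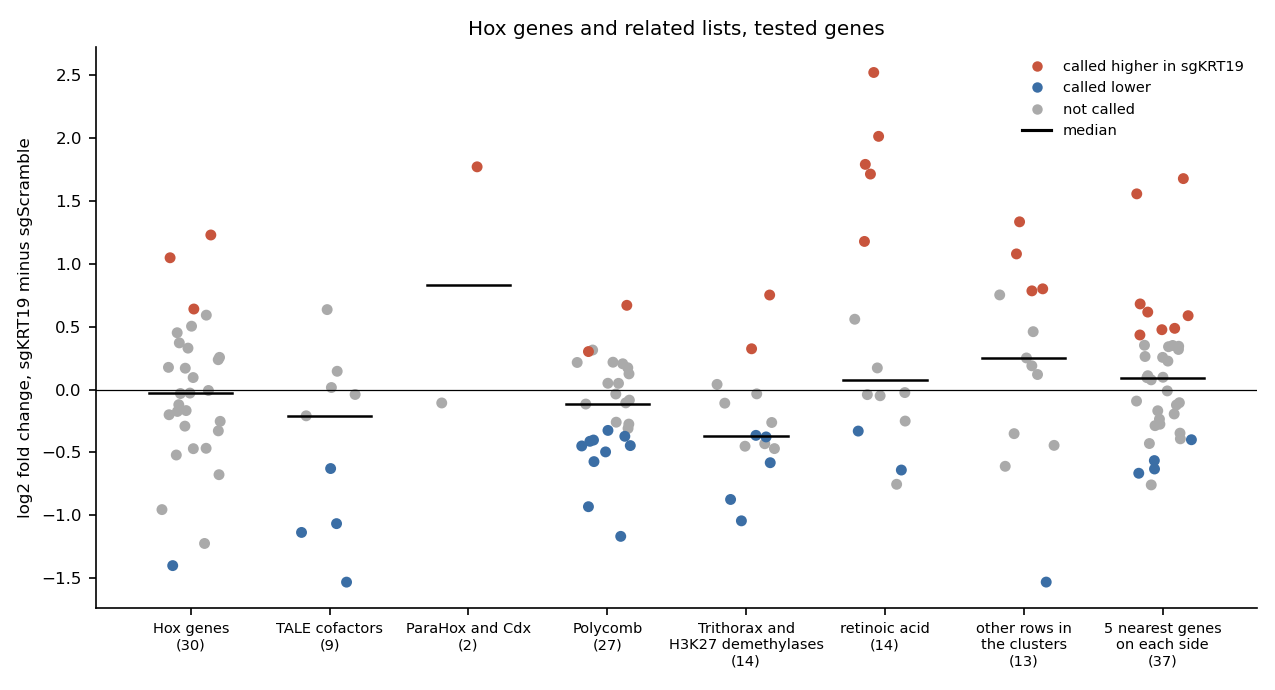
Log2 fold change (sgKRT19 minus sgScramble, vertical axis) of each tested gene of the Hox clusters, the related lists and the cluster surroundings, with the number tested under each list and a black line at the median. Red and blue points were called higher and lower, and grey points were not called; points are spread sideways only for legibility.

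Of 39 other rows inside the cluster bounds 13 were tested, with 4 higher and 1 lower (38.5% called, near the 34.0% of all genes) and a median of 0.25. Library size scaling gave 3 higher and 1 lower, *Gm27868* losing its call, and a median of 0.035. *Hoxaas3* (1.33) and the short RNAs *Gm27477* (1.08) and *Gm27868* (0.78) in the Hoxa cluster were higher, and so was *Gm11539* (0.80), a processed pseudogene in the Hoxb cluster. Pseudogenes can share reads with a parent gene, which was not examined here. *5730596B20Rik*, on the strand opposite to *Hoxa3* and overlapping 4.86% of its exon bases, was lower (-1.53). *Hotairm1*, a longer noncoding RNA of the Hoxa cluster, had means of 82.9 and 143 (log2 fold change 0.75, limma adjusted p = 0.0570). *Gm27868* lies within its bounds on the same strand, and *Gm27477* starts just beyond its end. These 2 short entries may therefore not be RNAs apart from *Hotairm1*, which was not examined. Of 20 named noncoding RNAs of the clusters, 14 were in the table and 8 were tested, and besides *Hoxaas3* only *Halr1* was called, at -1.50. Of the 5 nearest protein-coding genes on each side of each cluster, 40 in all, 37 were tested, with 8 higher and 4 lower and a median of 0.09. This is 32.4% called, near the 34.0% of all genes, and with library size scaling 4 were higher and 11 lower, with a median of -0.12, so the calls named next are no result about nearness to a cluster. The calls of *Hibadh*, *Tax1bp1*, *Mtx2* and *Atp5g3* were lost with that scaling. Beside the Hoxa cluster *Skap2* was not called, while *Snx10* (0.62), *Hibadh* (0.49) and *Tax1bp1* (0.43) were higher. Beside Hoxb, *Skap1* (1.68) was higher and *Cbx1* (-0.56) and *Copz2* (-0.63) lower. Beside Hoxc, *Calcoco1* (-0.67) and *Cbx5* (-0.40) were lower, and beside Hoxd, *Mtx2* (0.48), *Atp5g3* (0.59), *Nfe2l2* (0.68) and *Chrna1* (1.55), a muscle acetylcholine receptor subunit, were higher. Among 23 neighbours listed by name, which include most of these, 18 were tested, with 6 higher and 4 lower. This is 55.6% called, beside 34.0% of all genes, in a list written with earlier results of these data known. Library size scaling gave 2 higher and 6 lower.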

How the data were processed

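The authors deposited 1 table of signal values, read counts per gene divided by a size factor for each library, with 38026 rows and 1 column per library. Per the labels the build was mm10; the aligner, counter and annotation are not given in the sources used here. Kits are described as total RNA by the study and polyA RNA by the labels, read as single 76-base reads. Each value was a whole multiple of 1 read (within 0.1) for 100% of values in each library, and whole reads were so recovered. Totals were 40781199 to 44972100. The 95% intervals from limma rest on the spread between libraries, while the floor of 3 reads covers counting error only. Main fits used limma 3.58.1 (R 4.3.3) on log2(value + 1), trend on, genes with at least 10 in at least 3 libraries, Benjamini-Hochberg over 21322 genes; a fold change on this scale understates that of low genes. Alternatives were edgeR 4.0.16 and DESeq2 1.42.0 on recovered reads, library size scaling, pseudocounts of 0.5 and 5, no filter, a filter at 50, limma's treat above 1.5-fold, and each library left out. The fits were tested on simulated data. Members and lists were chosen with earlier results of these data known. Members called or with a group mean of at least 100 were given by library; list genes were named when called or next to a cluster. Positions are from GENCODE M21 (37167 identifiers matched, all 36 members) and promoters from RefSeq GRCm38.p6. Of symbols on more than 1 row (512), 347 had equal values on every row; *Men1* was counted once, and no member was among them. Some genes that the counts, sums and medians include are not reported here by name or drawn on their own. Figures used Python 3.11.15 and matplotlib 3.10.9.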

Additional observations from a re-analysis of the deposited data

Results flagged for a closer look

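In 4 of 42 sets of the 4 sgScramble values searched, for Hox members, cluster sums, marker sums and *Krt19*, the extreme library lay so far from the others that Dixon's ratio passed its 95% critical value, which chance gives in about 1 in 20 sets. *Hoxa9* was 87.7 in sgScramble 3 and 129.8 to 135 in the other controls. *Hoxc5* was 52.9 in sgScramble 4 and 24.1 to 25.6 in the others. *Hoxc11* was 4.64 in sgScramble 1 and 14.8 to 15.8 in the others. The skeletal muscle marker sum was 2720 in sgScramble 3 and 91.9 to 139 in the others. None of these libraries was left out of the main values. The sgKRT19 group has 3 libraries and was not searched.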

How the results depend on the processing

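*Hoxa7* and *Hoxa10* stayed called under every alternative except treat, a test of a change above 1.5-fold, which called 0 Hox genes (1 at an unadjusted p under 0.05, *Hoxa7* adjusted p = 0.0680). The count of called Hox genes was 2 of 35 tested without a filter. With the filter at 50 it was 2 of 18 tested, and *Hoxd9* and *Hoxb13* were not among those 18. When 1 library was left out it was 2 to 4, the 2 being without sgKRT19 8 or sgScramble 4. With treat, 1336 genes in all and 6 of the related lists were called, and all other settings stayed within 1.5 times of 7240 and 49. With library size scaling the median of all genes fell by 0.21 and calls split into 2187 higher and 5705 lower, beside 3820 and 3420; the Hoxb sum ratio then went from 1.07 to 0.92, while the Hoxa ratio was 1.22 (1.32 to 1.52 when 1 library was left out). Alternatives for sums and list genes were chosen after seeing the data. Of 417 alternative values for the 30 Hox genes, 20 changed sign, all for genes not called. Under library size scaling these were *Hoxa9* (-0.045), *Hoxb3* (-0.12) and *Hoxb8* (-0.039). With 1 library left out at a time, the changes ran from -0.74 to 0.057 for *Hoxa2* and from -0.29 to 0.030 for *Hoxc6* (above 0 without sgKRT19 8), from -0.38 to 0.20 for *Hoxa6* (sgKRT19 5 or sgScramble 4), from -0.12 to 0.068 for *Hoxb4* (sgKRT19 6 or sgScramble 4), from -0.25 to 0.18 for *Hoxb5* (sgKRT19 5 or 6, sgScramble 2 or 4), from -0.34 to 0.039 for *Hoxb6* (sgKRT19 5 or sgScramble 2), from -0.53 to 0.025 for *Hoxb9* (sgScramble 4), from -0.18 to 0.13 for *Hoxc8* (sgKRT19 8 or sgScramble 4), and from -0.0094 to 0.18 for *Hoxb3* and from -0.030 to 0.51 for *Hoxd10* (below 0 without sgScramble 1). The cause was not tested. *Krt19* kept its call throughout. No paired analysis was possible because the groups share no replicate number. Depth limits the members with few reads, *Hoxd9* and *Hoxb13* among the called ones.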
